A study of Mus musculus with 4 samples.

Results

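The pyruvate dehydrogenase (PDH) complex and the enzymes that switch it off and on were followed in the ventricles of mouse embryos with and without Hif1a in heart muscle precursors. The 10 genes were taken by name from a deposited table of 38293 genes: the kinases Pdk1, Pdk2, Pdk3 and Pdk4, the phosphatases Pdp1 and Pdp2, and the subunits Pdha1, Pdhb, Dlat and Pdhx. All 10 were found once in the table, and all 10 passed the filter on low counts that left 13711 genes.

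Polyadenylated RNA had been sequenced from ventricles, with atria and valves removed, of single embryos at E12.5 on a C57BL/6 background. All embryos came from litter 6. The knockout group, here cKO, has the genotype Hif1alphaflox/flox/Nkx2.5Cre/+ in the labels, and the control group has Hif1alphaflox/flox/Nkx2.5+/+, so embryos of either group are homozygous for floxed Hif1a. The Nkx2-5 gene, which drives the Cre, is switched on in the precursors of heart muscle, so other cells of the ventricle that never expressed it keep Hif1a. Each group had 2 libraries, numbered 2 and 3, and none carried Cre without floxed Hif1a. Effects of the Cre, of the altered Nkx2-5 allele that carries it and of Hif1a loss therefore cannot be told apart.

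The PDH complex sits in the mitochondrial matrix and turns pyruvate, the end product of glycolysis, into acetyl-CoA for the tricarboxylic acid cycle. Its kinases phosphorylate the E1 alpha subunit and stop the reaction, and its phosphatases remove the phosphate and start it again. HIF-1, the transcription factor whose oxygen-regulated subunit Hif1a encodes, is known to raise PDK1 transcription in low oxygen and so to hold back the conversion of pyruvate to acetyl-CoA. PDK1, the PDH kinase, is not the phosphoinositide-dependent kinase of the same short name, which is encoded by Pdpk1.

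The promoters of the kinases are shown because HIF-1 is known to bind short sites with the core ACGTG or GCGTG. Sequences came from RefSeq (build GRCm38.p6), which gave a window to 9 of the 10 genes, all but Pdp1. Each line holds the 250 bases before the first start of the gene, with every ACGTG or GCGTG in capitals, read on both strands, so that a match on the other strand appears as CACGT or CACGC. Pdk1 is on chr2:71872974-71873223 (plus strand), Pdk2 on chr11:95041372-95041621 (minus strand), Pdk3 on chrX:93832151-93832400 (minus strand) and Pdk4 on chr6:5496279-5496528 (minus strand).
Pdk1: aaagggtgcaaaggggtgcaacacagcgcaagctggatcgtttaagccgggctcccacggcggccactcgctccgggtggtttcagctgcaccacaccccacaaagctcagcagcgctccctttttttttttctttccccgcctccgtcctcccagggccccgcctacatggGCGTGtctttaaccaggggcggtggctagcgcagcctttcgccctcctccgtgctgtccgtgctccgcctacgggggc
Pdk2: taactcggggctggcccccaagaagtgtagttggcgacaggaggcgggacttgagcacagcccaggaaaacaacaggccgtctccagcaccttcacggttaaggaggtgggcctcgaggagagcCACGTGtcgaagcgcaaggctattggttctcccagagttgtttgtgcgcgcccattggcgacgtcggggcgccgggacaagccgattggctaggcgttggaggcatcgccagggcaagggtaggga
Pdk3: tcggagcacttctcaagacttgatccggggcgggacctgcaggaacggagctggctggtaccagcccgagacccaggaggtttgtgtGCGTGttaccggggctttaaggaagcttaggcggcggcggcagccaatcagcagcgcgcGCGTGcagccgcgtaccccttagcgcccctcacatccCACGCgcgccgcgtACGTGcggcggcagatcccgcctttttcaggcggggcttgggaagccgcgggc
Pdk4: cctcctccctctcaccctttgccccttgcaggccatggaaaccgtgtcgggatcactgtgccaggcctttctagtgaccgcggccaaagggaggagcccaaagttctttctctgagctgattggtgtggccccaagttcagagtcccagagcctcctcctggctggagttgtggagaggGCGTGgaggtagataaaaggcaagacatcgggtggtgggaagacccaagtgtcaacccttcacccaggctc

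Counted this way, Pdk1 and Pdk4 had 1 match each, Pdk2 had 2, which are both strands of a single CACGTG, and Pdk3 had 4. The match of Pdk1 begins 78 bases before the start. Another GCGTG spans the start itself and lies partly outside the stretch shown. The windows at a further start of Pdk1 and of Pdk2 had 0 matches. Of the other genes, Pdha1 had 3 matches, Pdp2, Pdhb and Pdhx had 2 each, and Dlat had 0. The 2 of Pdp2 are again both strands of a single CACGTG. Of 32851 mouse windows of the same length 38.6% held at least 1 match and 2.58% held 4 or more. Both motifs contain the pair CG, and the median of all windows was 6 such pairs. The windows at the first start held 19 in Pdk1, 19 in Pdk2, 29 in Pdk3, 6 in Pdk4 and 11 to 24 in the other genes. The shares over all windows are not matched for this. A match is a run of letters and not evidence of binding. Among the kinases Pdk3 had the most matches and Pdk1 differed most in transcripts, as the values below show. A link between matches and change was not tested.

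Of the 4 kinases, 1 fell in the cKO ventricles. Pdk1 (ENSMUSG00000006494, GRCm38 chromosome 2, 71873224 to 71903858, plus strand) is a known HIF-1 target. It stood at 64.6 and 59.7 CPM (counts scaled to library size by TMM) in cKO replicates 2 and 3. In control replicates 2 and 3 it stood at 253 and 260.2 CPM. Both cKO libraries were far below both controls, and the libraries of a group lay close together. The cKO mean was 62.2 ± 3.51 CPM and the control mean 257 ± 4.80 CPM (SD, n = 2 each). The log2 fold change, cKO over control, was -2.05 ± 0.09 (SE), a 4.14-fold fall, with a 95% interval from -2.25 to -1.85 (edgeR's quasi-likelihood test, adjusted p = 2.65e-05). Among all genes tested it had the 4th smallest p and the 19th lowest log2 fold change. It was called under each of 13 alternatives, a test against a 1.5-fold change among them, with a log2 fold change between -2.10 and -1.99. Fewer cells that express a gene and less RNA per cell cannot be told apart in whole ventricles.

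Pdk3 (ENSMUSG00000035232, chromosome X, 93764607 to 93832201, minus strand), a kinase of the same family, had 122.8 and 122.9 CPM in cKO replicates 2 and 3 and 154.4 and 154.6 CPM in control replicates 2 and 3. The groups did not overlap. On the log2 scale the libraries differed by 0.0020 within control and 0.0013 within cKO, far less than the SE of 0.08 from the fit. So close a match of 2 libraries is not a measure of the spread between embryos. The difference of -0.33 ± 0.08 on the log2 scale did not pass once adjusted over all genes (edgeR adjusted p = 0.234, unadjusted p = 0.00256). It was -0.33 with each library left out in turn, with adjusted p from 0.200 to 0.642. Pdk3 lies on chromosome X, and the sexes were not balanced: cKO replicate 3 was the only male, with the Y-linked Ddx3y at 101 CPM and Xist at 2.12 CPM, against at most 0.110 CPM of Ddx3y and at least 1754 CPM of Xist in the others. Without the male library the log2 fold change of Pdk3 was -0.33 (edgeR adjusted p = 0.642). The part of sex in the difference was not tested.

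Pdk2 and Pdk4 did not pass. Pdk2 (ENSMUSG00000038967, chromosome 11, 95026258 to 95041354, minus strand), the most widely expressed kinase of the family, had 48.8 and 44.4 CPM in cKO replicates 2 and 3 and 40.5 and 49.3 CPM in control replicates 2 and 3. Both cKO values fell inside the range of the controls. The log2 fold change was 0.05 ± 0.11 (edgeR adjusted p = 0.954), and its 95% interval, from -0.22 to 0.31, leaves out a change as large as 1.5-fold either way. Pdk4 (ENSMUSG00000019577, chromosome 6, 5483351 to 5496309, minus strand), the kinase that fasting and fatty acids induce in adult heart, had 42.3 and 37.7 CPM in cKO replicates 2 and 3 and 38.6 and 33.5 CPM in control replicates 2 and 3. Its groups overlapped, with cKO replicate 3 below control replicate 2. The log2 fold change was 0.14 ± 0.11 (edgeR adjusted p = 0.830, 95% interval -0.11 to 0.40).

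**Figure D1:**
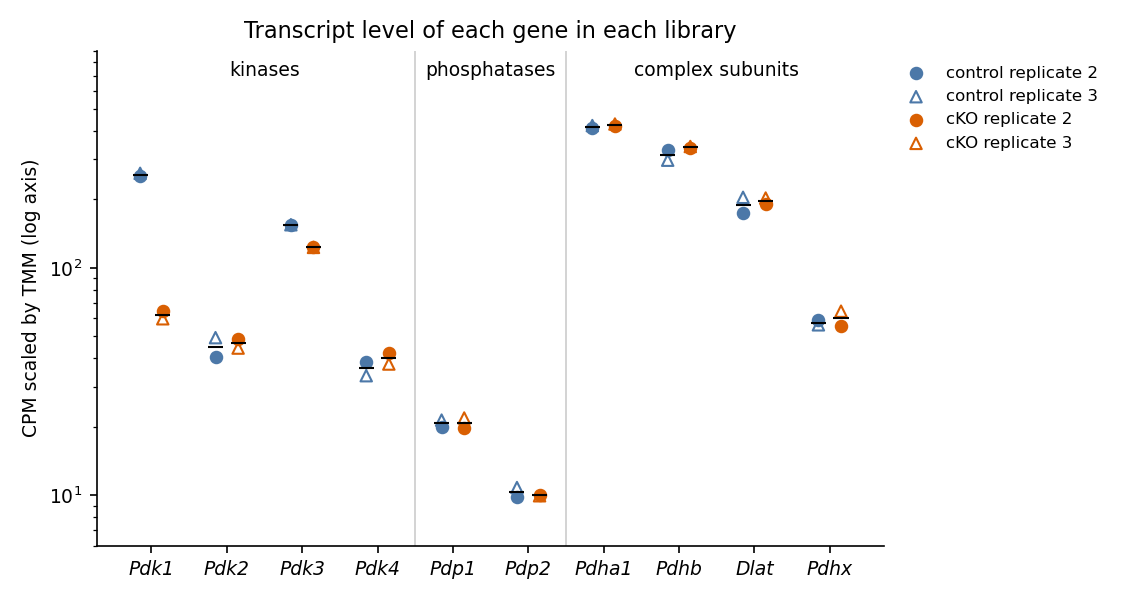
Transcript level of each gene in CPM scaled by TMM, on a log axis, with 1 point per library, blue for control, orange for cKO, and a black bar at each group mean. Pdk1, the 1 gene called, drops from 257 to 62.2 CPM, and of the 9 that did not pass the test Pdk3 has means of 154.5 CPM in control and 122.9 CPM in cKO.

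The phosphatases were the least abundant of the 10 genes. Pdp1 (ENSMUSG00000049225, chromosome 4, 11958184 to 11966452, minus strand), whose product is activated by calcium, had 19.7 and 21.9 CPM in cKO replicates 2 and 3 and 20.0 and 21.4 CPM in control replicates 2 and 3. Pdp2 (ENSMUSG00000048371, chromosome 8, 104591451 to 104599026, plus strand), the phosphatase that does not need calcium, had 10.0 and 9.95 CPM in cKO and 9.81 and 10.8 CPM in control, from 83 to 198 expected counts per library. In both genes the groups overlapped. The log2 fold changes were 0.01 ± 0.12 for Pdp1 and -0.05 ± 0.17 for Pdp2 (edgeR adjusted p = 0.988 and 0.968). At these counts the 95% interval of Pdp2 ran from -0.44 to 0.34, the widest of the 10. The interval is not adjusted over genes, so its ends are not the smallest change that could have been called.

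None of the 4 subunit genes passed. Pdha1 (ENSMUSG00000031299, chromosome X, 160122209 to 160138413, minus strand), the E1 alpha subunit that the kinases phosphorylate, had 421 and 429 CPM in cKO replicates 2 and 3 and 412 and 422 CPM in control replicates 2 and 3. Its values overlapped between groups and differed little among the libraries. The log2 fold change was 0.03 ± 0.08 (edgeR adjusted p = 0.963), with a 95% interval from -0.16 to 0.21. Pdha1 shares 603 exonic bases with Map3k15 on the opposite strand, and its expected counts became whole numbers in all 4 libraries when those of Map3k15 were added. Map3k15 held between 0.757% and 1.02% of that sum, so giving all its counts to Pdha1 would change Pdha1 little. That share comes from the split itself, so it does not limit how many Pdha1 counts could belong to Map3k15.

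Pdhb (ENSMUSG00000021748, chromosome 14, 8165996 to 8173025, minus strand), the E1 beta subunit, had 338 and 341 CPM in cKO replicates 2 and 3 and 328 and 297 CPM in control replicates 2 and 3. Both cKO values were above both controls, yet the difference was 0.12 ± 0.09 on the log2 scale and not called (edgeR adjusted p = 0.816). The controls differed from each other by 0.14 on the same scale. Dlat (ENSMUSG00000000168, chromosome 9, 50634633 to 50659780, minus strand), the E2 subunit that forms the core of the complex and passes on the acetyl group, had 191 and 203 CPM in cKO and 174 and 204 CPM in control. Pdhx (ENSMUSG00000010914, chromosome 2, 103021075 to 103073513, minus strand), which anchors the shared E3 subunit to that core, had 55.2 and 64.4 CPM in cKO and 58.8 and 56.1 CPM in control. Both overlapped between groups, with log2 fold changes of 0.06 ± 0.10 each (edgeR adjusted p = 0.927 for each).

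Of the 10 genes 1 fell, 0 rose and 9 did not pass. Over all 13711 genes 0.511% were called, 0.365% as lower and 0.146% as higher in cKO. The groups did not overlap for 2 of the 10 in the lower direction and for 1 in the higher, against 18.8% and 19.4% of all genes tested, so separation of 2 libraries from 2 is common here and counts for little without the test. The median log2 fold change was 0.04 over the 10 genes and -0.00031 over all genes, and the median size regardless of sign was 0.06 against 0.11.

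The share of all genes called differed among the 13 alternatives in which Pdk1 was the 1 member called. It was 0.518% with DESeq2's size factors, 0.547% with upper-quartile scaling and likewise with the replicate block, 0.7% with DESeq2's own test, and 0.532% with limma-voom. With no filter it was 0.271%, with a mean of at least 5 CPM 0.429%, and with the 1.5-fold threshold 0.241%. It came to 1.0% without cKO replicate 2, 0.577% without cKO replicate 3, 0.38% without control replicate 2, 0.275% without control replicate 3, and 0.533% with cKO replicate 3 thinned.

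**Figure D2:**
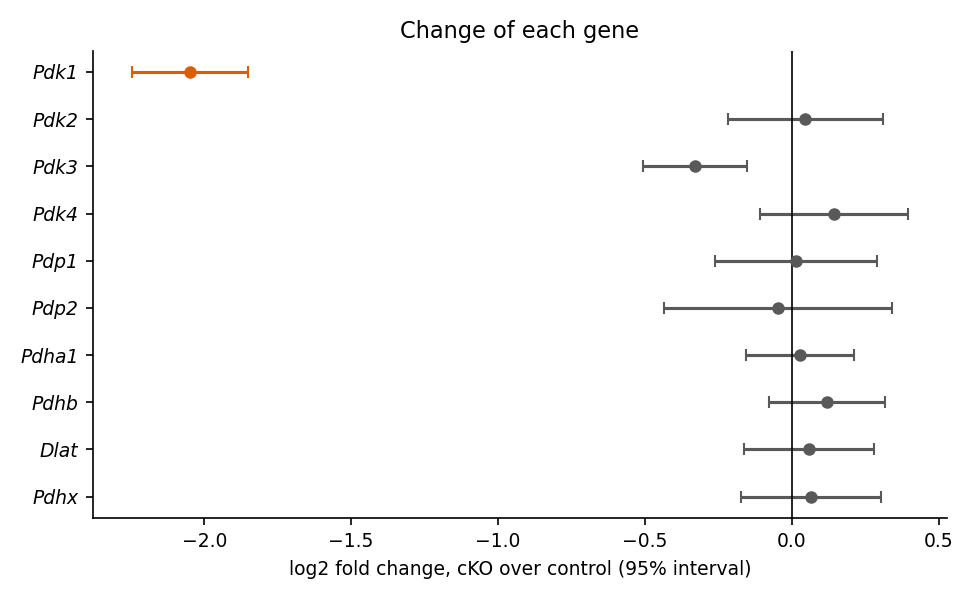
Log2 fold change of each gene, cKO over control, with its 95% interval from edgeR's quasi-likelihood fit, orange where the adjusted p passed 0.05. Pdk1 stands at -2.05, apart from the other 9 genes, whose estimates lie between -0.33 and 0.14.

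To compare the genes with each other, levels were taken as CPM per kilobase of summed exon length. In the controls the order was Pdha1 (112 ± 1.86), Pdhb (81.0 ± 5.70), Pdk3 (60.3 ± 0.0580), Dlat (38.7 ± 4.29), Pdk1 (33.0 ± 0.617), Pdhx (14.6 ± 0.472), Pdk2 (14.2 ± 1.95), Pdk4 (10.3 ± 1.02), Pdp1 (4.59 ± 0.222) and Pdp2 (1.81 ± 0.124), in CPM per kilobase (SD, n = 2). Among neighbours in this order only Pdhx and Pdk2 overlapped. In cKO Pdk1 moved from the 5th to the 8th place, at 7.99 ± 0.451 CPM per kilobase, below Pdk4 at 11.4 ± 0.915. Places depend on the length used: with the longest transcript of each gene Pdk1 stood 4th in control, above Dlat, and 7th in cKO, above Pdk4. With the transcripts that the deposited table lists, Pdhb came before Pdha1.

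Pdk3 was therefore the most abundant kinase per kilobase in both groups, and Pdk1 went from the second place among the 4 to the last, or to the third with the longest transcripts. Of the summed level of the 4 kinases, Pdk1 made up 27.9% and 28.1% in control replicates 2 and 3 and 9.93% and 9.54% in cKO replicates 2 and 3. Pdk3 made up 51.7% and 50.7% of the sum in the controls and 57.3% and 59.7% in cKO. The share of Pdk2 was 10.99% and 13.1% in the controls and 18.4% and 17.4% in cKO, and that of Pdk4 was 9.43% and 8.03% in the controls and 14.4% and 13.4% in cKO. No share overlapped between groups. Shares add up to a fixed whole, so those of Pdk2, Pdk3 and Pdk4 go up when Pdk1 goes down; their own levels did not pass the test. An exact two-sided permutation test of 2 against 2 cannot go below p = 0.333, which each share reached. By counts alone, with no length, Pdk1 held 52.0% of 4120 kinase counts in control replicate 2 (95% Wilson interval 50.5% to 53.6%) and 23.2% of 2753 in cKO replicate 2 (21.7% to 24.8%). These intervals cover counting error only.

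**Figure D3:**
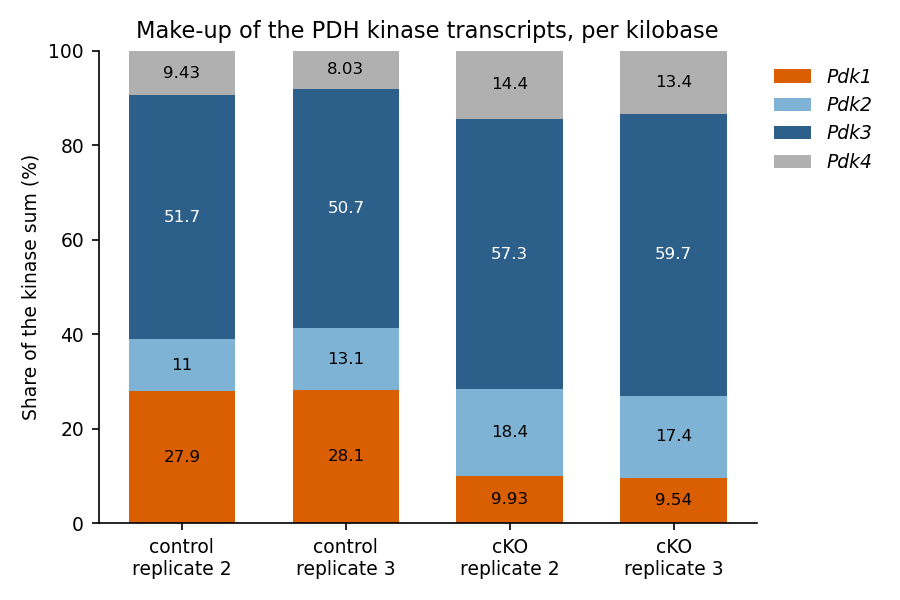
Share of each kinase, in percent, of the summed level of the 4 kinases per kilobase of exon, with 1 stacked bar per library. Pdk1 shrinks from 27.9% and 28.1% in the controls to 9.93% and 9.54% in cKO, and Pdk3 is the largest block in all 4 bars.

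The summed kinase level was 117 and 119 CPM per kilobase in control replicates 2 and 3 and 83.7 and 80.4 in cKO replicates 2 and 3, lower by 0.52 on the log2 scale in cKO (-30.3%, exact permutation p = 0.333, the smallest possible). Pdk1 made up 70.03% of that difference and Pdk3 34.6%, while Pdk2 and Pdk4 differed slightly in the other direction. Both figures depend on length: with no length the log2 difference of the sum was -0.86, and Pdk1 made up 88.2% and Pdk3 14.3% of the difference. Without Pdk1 the sum was 84.1 and 85.5 in control and 75.4 and 72.8 in cKO. The phosphatase sum was 6.16 and 6.64 CPM per kilobase in control and 6.14 and 6.60 in cKO. The ratio of kinase to phosphatase transcripts was thus 19.0 and 17.9 in control and 13.6 and 12.2 in cKO, and the ratio of kinases to Pdha1 was 1.06 and 1.05 in control and 0.742 and 0.701 in cKO. Neither ratio overlapped between groups. These are ratios of transcripts, and neither phosphorylation nor enzyme activity was measured.

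Against each sister kinase the ratio of Pdk1 moved the same way. All of these ratios share Pdk1 as numerator, so they restate its fall and are not separate results. The level of Pdk1 per kilobase was 2.54 and 2.15 times that of Pdk2 in control replicates 2 and 3 and 0.539 and 0.547 times in cKO. Pdk1 was 2.96 and 3.502 times Pdk4 in control and 0.690 and 0.714 times in cKO. Relative to Pdk3, it stood at 0.540 and 0.554 in control and 0.173 and 0.160 in cKO. In each of these 3 ratios both cKO libraries were below both controls (exact permutation p = 0.333 each, the smallest possible, and 0.333 after adjustment over the 3).

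The genes with a pattern most like that of Pdk1 were sought among 11185 others with a mean of at least 5 CPM, by the root mean square difference in centred log2 CPM over the 4 libraries. The nearest 5 were Bnip3, a mitochondrial protein induced by hypoxia (0.122), the lactate exporter Slc16a3 (0.203), the mitochondrial adenylate kinase Ak4 (0.207), the liver phosphofructokinase Pfkl (0.212) and the growth factor binding protein Igfbp2 (0.245). The median distance over all candidates was 1.03. Of the members Pdk3 was nearest, at 0.858 and place 318. The likeness rests on 4 libraries that differ mainly by group, and is a description.

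Around the complex, 2 of the 12 measured genes that bring in pyruvate or use it fell, 0 rose and 10 did not pass, where 0.365% of all genes tested were called lower. The median log2 fold change of the 12 was 0.01, with 6 positive and 6 negative. Ldha, which turns pyruvate into lactate, had 395 and 433 CPM in cKO and 1248 and 1226 CPM in control (log2 fold change -1.58 ± 0.09, edgeR adjusted p = 0.000161). Pkm, the pyruvate kinase that makes pyruvate, had 870 and 890 CPM in cKO and 1489 and 1544 CPM in control (-0.79 ± 0.09, edgeR adjusted p = 0.00631). The mitochondrial pyruvate carrier genes Mpc1 and Mpc2, chosen after their values were seen, had log2 fold changes of 0.09 ± 0.11 and 0.26 ± 0.13 (edgeR adjusted p = 0.896 and 0.735).

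The partners of the complex and the genes for its lipoate and thiamine cofactors showed no call. Of 14 listed genes 13 were tested, and the testis form Pdha2 had 0 counts in all 4 libraries. The 13 had a median log2 fold change of 0.08, 10 of them positive. Dld, the E3 subunit, and Pdpr, a regulator of the phosphatase, both chosen after their values were seen, had 0.13 ± 0.08 and -0.06 ± 0.10 (edgeR adjusted p = 0.788 and 0.927). The related 2-oxoacid dehydrogenases with their own kinase and phosphatase gave 0 calls among 9 genes (median 0.08), with Dbt, the E2 subunit of the branched-chain complex, at 0.25 ± 0.08 (edgeR adjusted p = 0.593).

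Factors known to act on transcription of Pdk genes also had 0 calls, among 15 genes with a median log2 fold change of -0.09, 11 of them negative. The smallest p was that of Hif1a itself, with 716 and 663 CPM in cKO and 530.0 and 552 CPM in control (0.35 ± 0.09, edgeR adjusted p = 0.317). Exons outside the floxed part still give reads, so this total does not check the deletion. Nkx2-5 carries the Cre in cKO. It had 44.3 and 42.1 CPM in cKO and 55.9 and 64.9 CPM in control (-0.49 ± 0.10, edgeR adjusted p = 0.153). The part of the Cre allele in this difference was not tested.

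**Figure D4:**
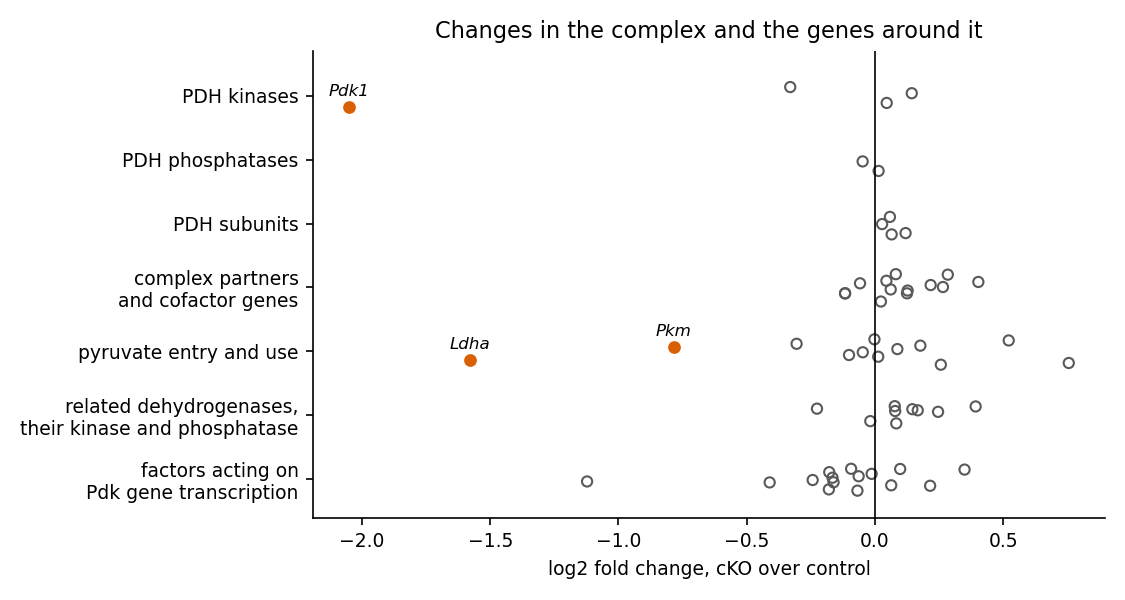
Log2 fold change, cKO over control, of the 10 genes by role and of the measured genes of 4 lists around the complex, with 1 point per gene, filled and named where edgeR's adjusted p passed 0.05. Pdk1, Ldha and Pkm are the filled points, and most others lie near 0.

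Libraries held 8561687 to 19801300 expected counts, the most in cKO replicate 3. With that library thinned to the next depth Pdk1 had -2.03. The ventricle's own markers were abundant, 8 heart muscle genes summing to 33296 to 36853 CPM in cKO and 35432 to 36753 CPM in control, with 0 calls. Genes listed as markers of other cells were summed. The sums ranged, in cKO against control, from 939 to 1021 against 1098 to 1155 CPM for 8 endothelial and endocardial genes. They ranged from 252 to 341 against 323 to 357 for 7 epicardial genes. For 6 smooth muscle and pericyte genes they ranged from 828 to 957 against 1261 to 1271. They ranged from 2657 to 6432 against 5054 to 5812 CPM for 8 erythroid genes, from 383 to 580 against 405 to 610 for 6 cushion genes, from 1911 to 2126 against 1742 to 2039 for 6 atrial genes, from 62.5 to 90.6 against 86.3 to 92.0 for 5 immune genes, and from 2.26 to 2.53 against 0.473 to 0.662 for 5 liver genes. Nearly all of the atrial sum was Myl4, at 1887 to 2100 CPM in cKO and 1709 to 2011 CPM in control. Of the other atrial genes Nr2f2 was highest, at 17.9 to 25.2 CPM over the 4 libraries, and Sln was at most 0.202 CPM. No marker was at 0 in all 4 libraries. The epicardial Krt19 was the 1 marker gene called, lower in cKO (edgeR adjusted p = 0.0347). The endothelial and the smooth muscle sums were lower in both cKO libraries, as Pdk1 was, by less. Most of the smooth muscle sum was Acta2, at 497 and 599 CPM in cKO and 833 and 862 CPM in control. Tagln and Cnn1 were also lower in both cKO libraries, while Pdgfrb, Rgs5 and Myh11 overlapped between groups. Rgs5 was at most 1.66 CPM and Myh11 at most 0.452 CPM in any library. In whole ventricles the counts do not show which cells the Acta2, Tagln and Cnn1 reads came from, heart muscle included. The part of these sums in the difference of Pdk1 or Pdk3 was not tested.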

How the data were processed

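Polyadenylated RNA of 2 cKO and 2 control ventricles was sequenced as single reads of 75 bases from 500 ng of total RNA, per the labels. The authors deposited expected counts per gene, which are estimated and need not be whole; RSEM 1.2.3, cutadapt 1.3, CASAVA 1.8.2 and GRCm38 are named, per the submitters' processing notes, and the annotation is not given in the sources used here. Symbols, positions and lengths came from GENCODE mouse release 21 (GRCm38), which named 36345 of 38293 genes. Expected counts were rounded, filtered by edgeR's filterByExpr (minimum count 10, minimum total 15), scaled by TMM and compared with edgeR 4.0.16 (glmQLFit and glmQLFTest, R 4.3.3) with Benjamini-Hochberg adjustment over 13711 genes, a call needing an adjusted p under 0.05. The design left 2 residual degrees of freedom, and the median total of the test was 8.14, the rest coming from the spread shared across genes. SE is the log2 fold change over the square root of F, and 95% intervals use the test's total degrees of freedom and are not adjusted over genes. The script was tested on simulated data for this comparison (13711 genes). It found 79.6% of the genes set to change 2-fold but 50% of those set to 1.5-fold. Of its 180 calls 21 were false, a larger share than the 0.05 that the threshold aims at.

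The genes and lists were chosen with earlier results of these data known. Named beside them are Hif1a and Nkx2-5, from each list the called genes (at most 4) or the 1 with the smallest p, and the 5 genes most like Pdk1; 1 gene named by this rule is not reported here. The marker lists are textbook genes. The labels tie the replicate numbers to no shared source, so the embryos were taken as unpaired. The p values of edgeR rest on the spread between these embryos of 1 litter together with the spread shared across genes. BLAST 2.17.0 found no near-identical copy (95% over 300 bases) of a member among the genes of the table. Outside them it found Gm6123, a processed pseudogene 97.0% identical to Pdhb over 1079 bases. Whether reads from it were counted to Pdhb cannot be told here. Shares and ratios were tested with SciPy 1.17.1. Alternatives were DESeq2 1.42.0 (size factors, own test), upper-quartile scaling, limma-voom (limma 3.58.1), other filters, the replicate block, a 1.5-fold threshold, other lengths and each library left out.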

Additional observations from a re-analysis of the deposited data

How the results depend on the processing

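Pdk1 was called in each of 13 alternatives (adjusted p at most 0.000388), and no other member in any. Thinning cKO replicate 3 and the deposited table's transcript lengths were chosen after seeing the data. All genes called numbered 70 (50 lower, 20 higher), against 33 (18 lower) with a 1.5-fold threshold; 31 were higher with DESeq2's test and 10 with a mean of at least 5 CPM. Leaving out 1 library gave 39 to 141 calls, 24 to 69 lower and 15 to 72 higher, with 39 without control replicate 3 and 141 without cKO replicate 2. The replicate block gave 75 calls, 69 of them among the 70, and log2 fold changes of -2.05 for Pdk1 and -0.33 for Pdk3; same-numbered libraries' deviations correlated at 0.106 across genes, and the labels do not pair them. With 1 library left out, where the lone library is assumed to vary like the other group, estimates near 0 changed sign: Pdk2 ranged from -0.086 to 0.20 (-0.018 without cKO replicate 2), Pdp1 from -0.069 to 0.080 (-0.035 without control replicate 2), Pdp2 from -0.12 to 0.025, Dlat from -0.050 to 0.18 and Pdhx from -0.056 to 0.17, while Pdk1 ranged from -2.10 to -1.99.

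Length moved the shares and sums through the weights it gives each gene. The difference in share, cKO minus control, was -18.3 percentage points for Pdk1, against -20.7 with the longest transcript, whether of the gene or of those in the deposited table, and -29.3 with no length. For Pdk3 it was 7.27, against 9.04 with either longest transcript and 13.9 with no length; with no length it was 8.02 for Pdk2 and 7.39 for Pdk4. Leave-outs ranged from -18.5 to -18.1 for Pdk1, 4.82 to 6.94 for Pdk2, 6.07 to 8.46 for Pdk3 and 4.45 to 5.84 for Pdk4. The kinase sum was lower by 0.52 on the log2 scale: -0.58 with either longest transcript, -0.86 with no length, -0.55 to -0.49 with 1 library left out. Its ratio to the phosphatases (-0.51) was -0.85 with no length and -0.59 to -0.43 in leave-outs; its ratio to Pdha1 (-0.55) was -0.61 with either longest transcript, -0.89 with no length and -0.59 to -0.51 in leave-outs. Summing members with near-identical copies was not run, since the table holds no such copy. Depth limits Pdp2 most.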
